A study of Mus musculus with 2 samples.

Results

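The barcodes described here are those of the Id2-deficient library in which more than 10% of unique molecular identifiers (UMIs, tags that each count 1 captured RNA molecule) came from mt- genes, the 13 protein-coding genes of the mitochondrial genome. The rule held for 525 of the library's 2459 barcodes (21.4%, exact Clopper-Pearson interval 19.7% to 23.0%), and these are called high-mt barcodes. They were set against the other 1934 barcodes of the same library, which had at most 10% of UMIs from mt- genes and at least 200 detected genes and are called low-mt barcodes. Of the high-mt barcodes, 5 had fewer than 200 genes and were kept, so every barcode of the library stands in one of these groups. The high-mt barcodes were thus chosen by a measured value, the mt- share, which is given only as a description. All other shares were taken after mt- UMIs had been removed.

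The libraries were made by 10x droplet 3′ RNA sequencing from sorted CD4+ YFP+ T cells. Mice had been given MOG peptide with CFA to cause EAE, an autoimmune disease of the central nervous system used to model multiple sclerosis, and cells were taken when disease peaked. One genotype, Il17Cre/Id2f/f/R26YFP, is called Id2-deficient and gave 1 library; the other, Il17Cre/R26YFP, is the control and gave 1 library. Both genotypes carry a Cre recombinase driven by Il17 and a YFP reporter at the Rosa26 locus, so YFP marks cells with a history of Il17 expression and Id2 is deleted only in such cells. The labels disagree on the tissue, naming draining lymph node, spleen, or spleen and lymph node together. The sources used here do not give the age of the mice, how many were used or whether they were pooled. The high-mt barcodes come from 1 library, so no difference below has a replicate check, and every interval is a 95% interval that covers counting error only.

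RNA of a T cell lies in several compartments. Most messenger RNA, including the short and abundant messages for ribosomal proteins, is in the cytoplasm, mitochondrial messages are made and kept inside mitochondria, and a few long noncoding RNAs such as Malat1 stay in the nucleus. In droplet data a high share of mitochondrial RNA is widely used as a sign of damaged cells, and such barcodes are usually set aside before cell states are compared. Among helper T cells, Th17 cells make interleukin 17, Th1 cells make interferon gamma and follicular helper (Tfh) cells help B cells in follicles.

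The targeted gene was read first as a check of the label. Id2, an inhibitor of E-protein transcription factors (ENSMUSG00000020644, GRCm38 chromosome 12, 25093799 to 25097140, minus strand), had 2 UMIs in the 525 high-mt barcodes (4.94 CPM, that is, UMIs per 1000000 UMIs outside mt- genes; exact Poisson interval 0.598 to 17.8), against 187 UMIs in the low-mt barcodes (13.8 CPM, 11.9 to 15.9). The control library had 334 CPM (327 to 340). Both groups of Id2-deficient barcodes were thus far under the control, and the high-mt to low-mt log2 ratio of -1.48 had an interval of -4.54 to 0.39 that covers 0; with ribosomal protein genes out of the total it was -1.96 (-5.01 to -0.08), which does not. Which exons are floxed was not stated, and the count is a check only where the deletion removes the counted 3′ end.

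The whole Id2-deficient library had 14668624 UMIs, and the control library had 4937 barcodes with 33646845 UMIs. In the control library 3 barcodes (0.0608%, 0.0125% to 0.177%) exceeded the 10% limit, with Malat1 shares of 8.48% to 13.4% and ribosomal protein shares of 2.04% to 13.1% of their 1077 to 1443 UMIs outside mt- genes. Cell viability before loading was above 98% for both libraries per the labels. Of the deposited barcode sequences 3 occur in both libraries, none of them in a high-mt barcode. Among the low-mt barcodes, 39 carried at least 3 UMIs of a set of B cell genes that includes Cd79a, Cd79b and Ms4a1, and fewer than 3 UMIs of T cell receptor or CD3 genes. These B cell barcodes (median 4742 UMIs outside mt- genes) are set beside the other groups below. Whether their UMIs of the genes shown come from free RNA or from the B cells was not tested.

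High-mt barcodes held few UMIs outside mt- genes. Outside mt- genes they had a median of 632 UMIs (lowest 132, highest 5791), against 6030 UMIs (540 to 55922) in low-mt barcodes, a 9.54-fold lower median. The number of detected genes outside mt- genes had a median of 451 in high-mt barcodes and 2088 in low-mt barcodes. In 521 of the 525 high-mt barcodes the depth was below the 5th percentile of the low-mt barcodes. Together they held 3.67% of the library's UMIs.

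The count of mt- UMIs itself was close in both groups. High-mt barcodes had a median of 233 mt- UMIs (67 to 1478), against 276 (1 to 1655) in low-mt barcodes, or 84.4% of the low-mt median. Malat1 had a median of 99 UMIs in high-mt barcodes and 180 in low-mt barcodes, or 55%. The high mt- share (median 25.8%, against 4.17%) went with few other UMIs and not with more mt- UMIs per barcode. The groups were cut on mt- UMIs over all UMIs. Lower depth in high-mt barcodes is thus partly built into this contrast and into the depth difference above. All remaining genes lay between these classes and ribosomal protein genes: UMIs outside mt-, Malat1 and ribosomal protein genes had a median of 499 against 3916, or 12.7%. Ribosomal protein genes had a median of 26 UMIs (6 to 1429) in high-mt barcodes and 1945 (14 to 18793) in low-mt barcodes, 74.8-fold lower.

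**Figure D1:**
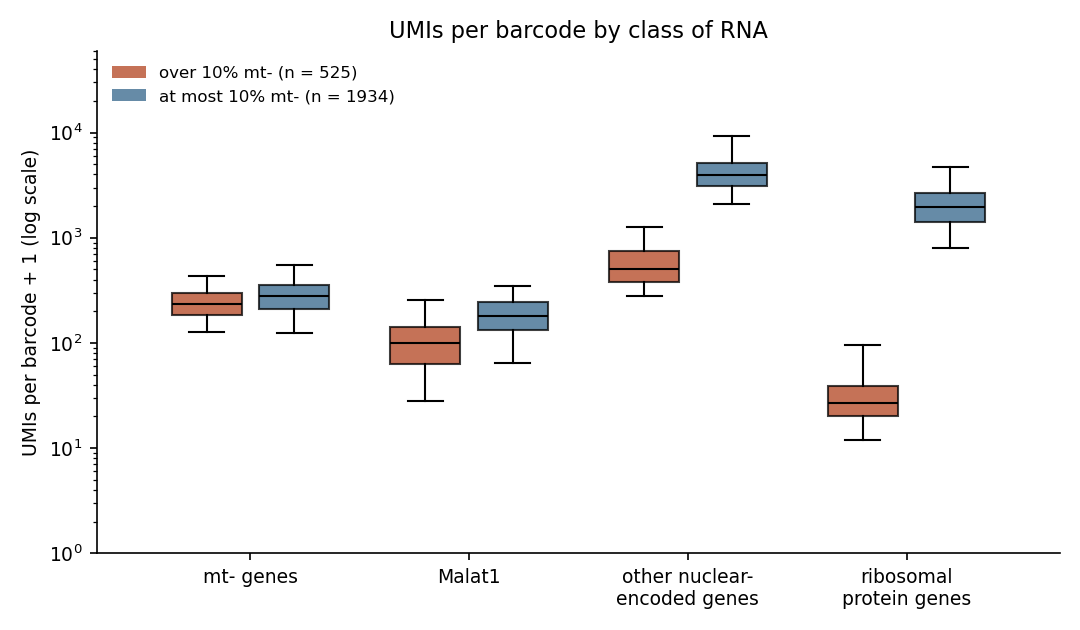
UMIs per barcode plus 1 (log scale) for 4 classes of RNA in the 525 high-mt barcodes (left box of each pair) and the 1934 low-mt barcodes (right box). Boxes span the middle 50% of barcodes with the median as a line and whiskers reach the 5th and 95th percentiles; the boxes for mt- genes lie close together, with medians of 233 and 276 UMIs, while those for ribosomal protein genes, at 26 and 1945 UMIs, are far apart.

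Among UMIs outside mt- genes, Malat1 took a median of 15.0% in high-mt barcodes and 2.91% in low-mt barcodes (1.86% in control barcodes with at most 10% mt-). Ribosomal protein genes took 4.12% in high-mt barcodes and 31.7% in low-mt barcodes (30.3% in the control). The Malat1 share was above the 95th percentile of low-mt barcodes in 490 of the 525 high-mt barcodes, and the ribosomal protein share was below the 5th percentile in 520. A ribosomal protein share under 10% was found in 498 high-mt barcodes (94.9%, 92.6% to 96.6%), in 14 low-mt barcodes (0.724%, 0.396% to 1.21%) and in 46 of 4925 control barcodes (0.934%, 0.685% to 1.24%). Adding a Malat1 share of at least 5% left 481 high-mt barcodes, 12 low-mt barcodes and 2 control barcodes. The 14 low-mt barcodes with few ribosomal protein UMIs had a median Malat1 share of 12.7%, an mt- share of 7.35% and 1355 UMIs outside mt- genes, values on the high-mt side of the low-mt medians, whereas the 46 control barcodes had 0.610%, 0.340% and 9493.

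**Figure D2:**
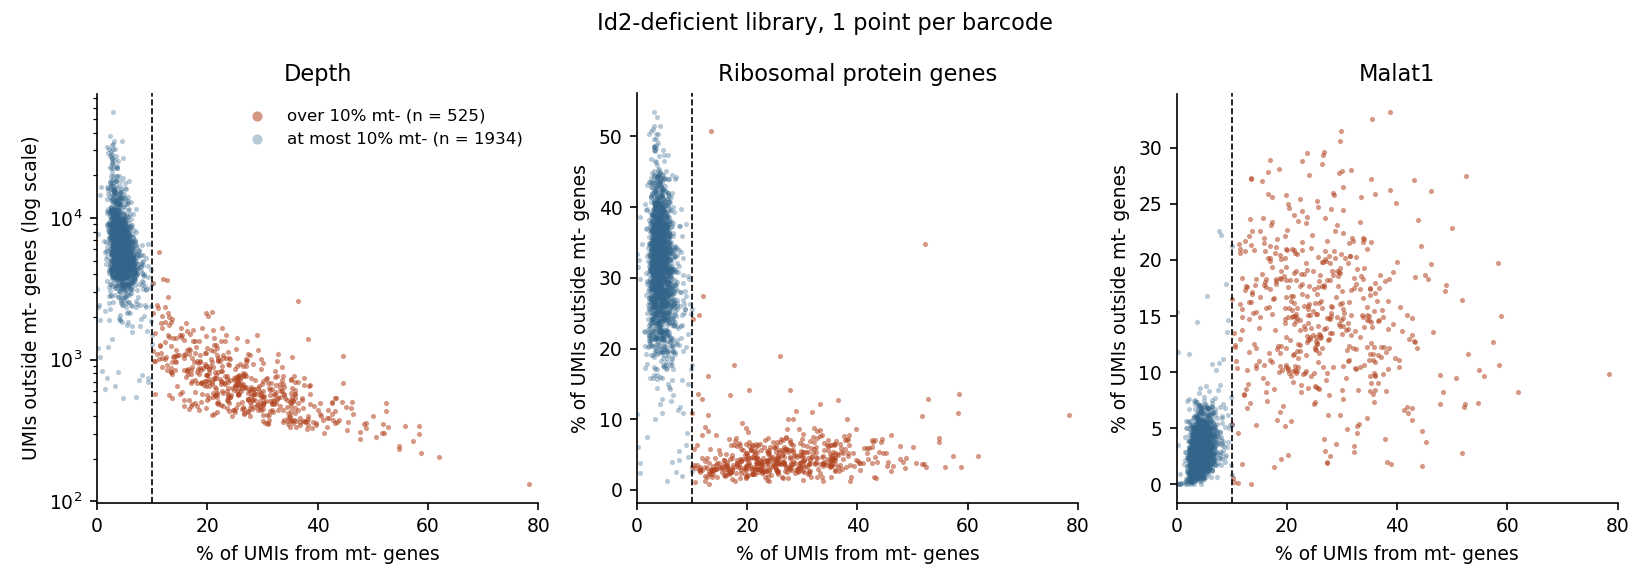
Each point is 1 barcode of the Id2-deficient library, high-mt in red and low-mt in blue, with the share of its UMIs from mt- genes on the x axis and the 10% limit as a dashed line. The y axes give UMIs outside mt- genes (log scale), the ribosomal protein share and the Malat1 share of those UMIs; most high-mt points form a band under 10% ribosomal protein share at every mt- share, while Malat1 shares spread from 0% to 33.2%.

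Across the limit, the ribosomal protein share differed more between neighbouring bins than anywhere else in the library. Among barcodes with 8% to 10% mt- (n = 34) the median ribosomal protein share was 25.3% and the Malat1 share 4.63%, and among those with 10% to 12% (n = 21) they were 3.54% and 12.9%. Just outside the limit, 12 barcodes with 9% to 10% mt- had a median of 2790 UMIs outside mt- genes and a ribosomal protein share from 2.61% to 30.3%. Just inside it, 9 barcodes with 10% to 11% had a median of 1145 UMIs and a ribosomal protein share from 1.17% to 24.2%, so the ranges on both sides overlapped.

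Within the high-mt barcodes, a higher mt- share went with fewer UMIs of other genes and with somewhat more mt- UMIs. From 10% to 12% mt- up to over 40%, the median of UMIs outside mt- genes ran through 1266, 1078, 856, 660, 509 and 372, while that of mt- UMIs ran through 163, 182, 192, 224, 256 and 330. The ribosomal protein share stayed between 3.03% and 4.85% across these 6 bins, and the Malat1 share was highest, at 17.8%, in the 82 barcodes with 15% to 20% mt- and 12.6% in the 51 with over 40%. Since the mt- share has the other UMIs in its denominator, lower depth at a higher share is partly built into the bins.

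The mix of mt- genes hardly differed between the groups. Of mt- UMIs, mt-Atp6, an ATP synthase subunit, took 25.6% in high-mt barcodes and 24.5% in low-mt barcodes. The cytochrome oxidase genes mt-Co2, mt-Co3 and mt-Co1 took 15.9%, 15.4% and 13.4% in high-mt barcodes, against 16%, 15.4% and 14.3% in low-mt barcodes. mt-Cytb, of complex III, took 11.8% and 11.5%. The complex I genes mt-Nd1, mt-Nd2 and mt-Nd4 took 3.95%, 5.25% and 4.24% in high-mt barcodes, against 4.21%, 5.23% and 4.41%. Differences beyond 10% of a share were seen only in minor genes: mt-Nd4l with 1.38% against 1.21%, mt-Nd3 with 1.40% against 1.59%, and mt-Nd6 with 94 against 556 UMIs (0.0706% against 0.0965%). mt-Nd5 took 1.01% against 1.06% and mt-Atp8 0.595% against 0.594%. Both groups differed more from the control library, where mt-Atp6 took 17.9% and mt-Nd4l 3.72% of mt- UMIs.

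For each gene outside the mt- genes, UMIs were summed over the barcodes of each group (404832 in high-mt and 13554524 in low-mt barcodes), and the log2 ratio of the high-mt over the low-mt CPM was taken, with an exact conditional binomial interval. There were 6727 genes measured with at least 200 UMIs over both groups. Their median log2 ratio was 0.60, because shares add up to a whole and ribosomal protein genes took a smaller one in high-mt barcodes; with these genes left out of the total, every ratio is lower by 0.48 (shift -0.48). In high-mt barcodes 3408 measured genes (50.7%) were higher by 1.5-fold or more, and 1458 (21.7%) were lower by as much. Relative to the median gene, 2012 (29.9%) were 1.5-fold above and 2285 (34%) 1.5-fold below. These are counts past a fold, not tests: 910 measured genes had fewer than 10 UMIs in high-mt barcodes, and 13 had none and entered with a floor of 3 counts.

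Among the gene lists, long noncoding RNAs known to stay in the nucleus had the highest median, although single protein-coding genes given below stood as high. Malat1 (ENSMUSG00000092341, GRCm38 chromosome 19, 5795690 to 5802672, minus strand) had 59185 UMIs in high-mt barcodes (146196 CPM) and 371355 in low-mt barcodes (27397 CPM), 5.34-fold higher (log2 ratio 2.42, 2.40 to 2.43). Xist, the RNA that coats the inactive X chromosome, had 2279 and 13197 UMIs and a log2 ratio of 2.53 (2.47 to 2.60). Kcnq1ot1, an imprinted antisense RNA, stood at 2.72 (2.56 to 2.87) and Neat1, the scaffold of paraspeckles, at 2.20 (1.96 to 2.44). The list of nuclear-retained RNA had 6 measured genes, with a median annotated transcript of 12464.5 bases. Of these, 5 were 1.5-fold higher, 0 were lower, and the median ratio was 2.33. The exception was Gm42418, a feature that overlaps ribosomal RNA sequence, at 0.18 (0.13 to 0.22); 1 high-mt barcode held 10.2% of the 4066 high-mt UMIs of that feature.

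The stretch of Malat1 shown here is the part of the transcript around its longest run of A, because libraries of this kind are primed on runs of A. It lies at chr19:5795928-5796059 (GRCm38, minus strand; GENCODE M21 transcript), positions 6614 to 6745 of a transcript of 6983 bases. The capitals mark the run of 12 A, which ends 298 bases before the annotated 3′ end. Whether the Malat1 RNA of these cells reaches that annotated end was not tested.
Malat1: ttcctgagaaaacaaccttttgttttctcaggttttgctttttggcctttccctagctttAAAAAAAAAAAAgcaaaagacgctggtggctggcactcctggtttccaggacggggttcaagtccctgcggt
Where in the transcript the Malat1 UMIs were counted was not tested, since the deposited counts give no positions.

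The other genes with the highest ratios, taken by the lower bound of the interval among genes with under 10% of either group's UMIs in 1 barcode follow. Tsix, which is antisense to Xist, stood at 3.38 (3.16 to 3.60), and Gm15655, which overlaps Maf on the opposite strand, at 2.91 (2.43 to 3.37); it is not stated whether counting used strand, so their UMIs may belong to the partner. Ttn, the giant muscle protein titin, had 74 UMIs in high-mt barcodes and 263 in low-mt barcodes, with a ratio of 3.24 (2.84 to 3.61) and an annotated transcript of 106824 bases. Ago3, of the small RNA machinery, stood at 2.75 (2.30 to 3.18), the transcription factor Ahr at 2.70 (2.36 to 3.02), Rufy2 at 2.70 (2.32 to 3.07), Mllt6 at 2.60 (2.29 to 2.89), the T cell kinase Txk at 2.46 (2.26 to 2.65) and the noncoding Gm26740 at 2.44 (2.26 to 2.61).

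Ribosomal protein genes were lower almost without exception. Of 83 measured, 82 were at least 1.5-fold lower and 0 were higher in high-mt barcodes. The median log2 ratio was -2.55 and the range was from -3.17 to -0.54. The class was taken by gene symbol. The gene at -0.54, Rps19bp1 (10 and 486 UMIs), encodes a binding protein of Rps19 and not a ribosomal protein. Many ribosomal protein genes have near-identical pseudogenes, and it is not stated how the counting dealt with these. Rpl35 had 130 UMIs in high-mt barcodes and 39114 in low-mt barcodes, a ratio of -3.17 (-3.43 to -2.92). Rpl12 stood at -3.03, Rpl39 at -3.02, Rps28 at -2.96, Rps15a at -2.93 and Rpl32 at -2.87. The lowest genes by the upper bound of the interval also included Rps12, Rps24 and Rplp1 at -2.85, -2.82 and -2.82. Summed over the class, the ratio was -2.52 (-2.54 to -2.50).

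Other abundant cytoplasmic messages were also low. Nme2, a nucleoside diphosphate kinase, had 42 UMIs in high-mt barcodes and 12547 in low-mt barcodes, a ratio of -3.16 (-3.63 to -2.72). Tpt1, a translationally controlled protein, stood at -2.78 (-2.91 to -2.66). Outside ribosomal protein genes, a set named after the values were seen, the lowest also included Fau, which encodes a ribosomal protein fusion, at -2.55, the calcium-binding S100a4 and S100a10 at -2.77 and -2.53, the actin-binding thymosins Tmsb4x and Tmsb10 at -2.52 and -2.48, Naca and Eef1b2 of the translation machinery at -2.58 and -2.42, and Ifi27l2a at -2.35. Of 20 translation factors, 16 were lower and 1, Eif4a2 at 0.85, was higher, with a median of -2.08. For all measured genes 21.7% were lower and 50.7% higher. Of 25 actin and tubulin cytoskeleton genes, 22 were lower and 0 higher (median -1.38), and of 13 glycolysis genes, 9 were lower and 2 higher (median -0.96), from Gapdh at -2.38 to the phosphofructokinase Pfkp at 1.21. The endoplasmic reticulum machinery was split, with 12 of 28 genes lower and 4 higher (median -0.23), from Sec61g at -2.53 to Sec61a1 at 1.28. Its measured genes had a median annotated transcript of 2797.5 bases. The medians were 1784 bases for translation factors, 1914 for cytoskeleton and 1825 for glycolysis genes. The part of length in the ratios of these lists was not tested.

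The nuclear-encoded partners of the mt- genes were low. The oxidative phosphorylation genes of the nucleus are translated in the cytoplasm and join the mt- encoded subunits in the same complexes. Those measured had a median annotated transcript of 787 bases, and the part of length in their ratios was not tested. Of 62 measured, 60 were at least 1.5-fold lower and 0 were higher in high-mt barcodes, with a median of -2.08. Shares over all measured genes were 21.7% lower and 50.7% higher. Cox7b, of cytochrome oxidase, had 22 UMIs in high-mt barcodes and 5853 in low-mt barcodes (-2.99, -3.67 to -2.39), Atp5e, of ATP synthase, had 60 and 14761 (-2.88), and the highest was the succinate dehydrogenase subunit Sdha at -0.02 (-0.50 to 0.42). Of 31 genes of mitochondrial import, dynamics and quality control, 22 were lower and 4 higher (median -1.04). The short import subunit Tomm7 stood at -2.49 and the fusion GTPase Opa1 at 1.75. At equal depth, with each barcode thinned at random to 500 UMIs outside mt- genes, 43.2% of 375 high-mt barcodes and 98.9% of 1934 low-mt barcodes had at least 3 UMIs of the nuclear-encoded oxidative phosphorylation list.

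**Figure D3:**
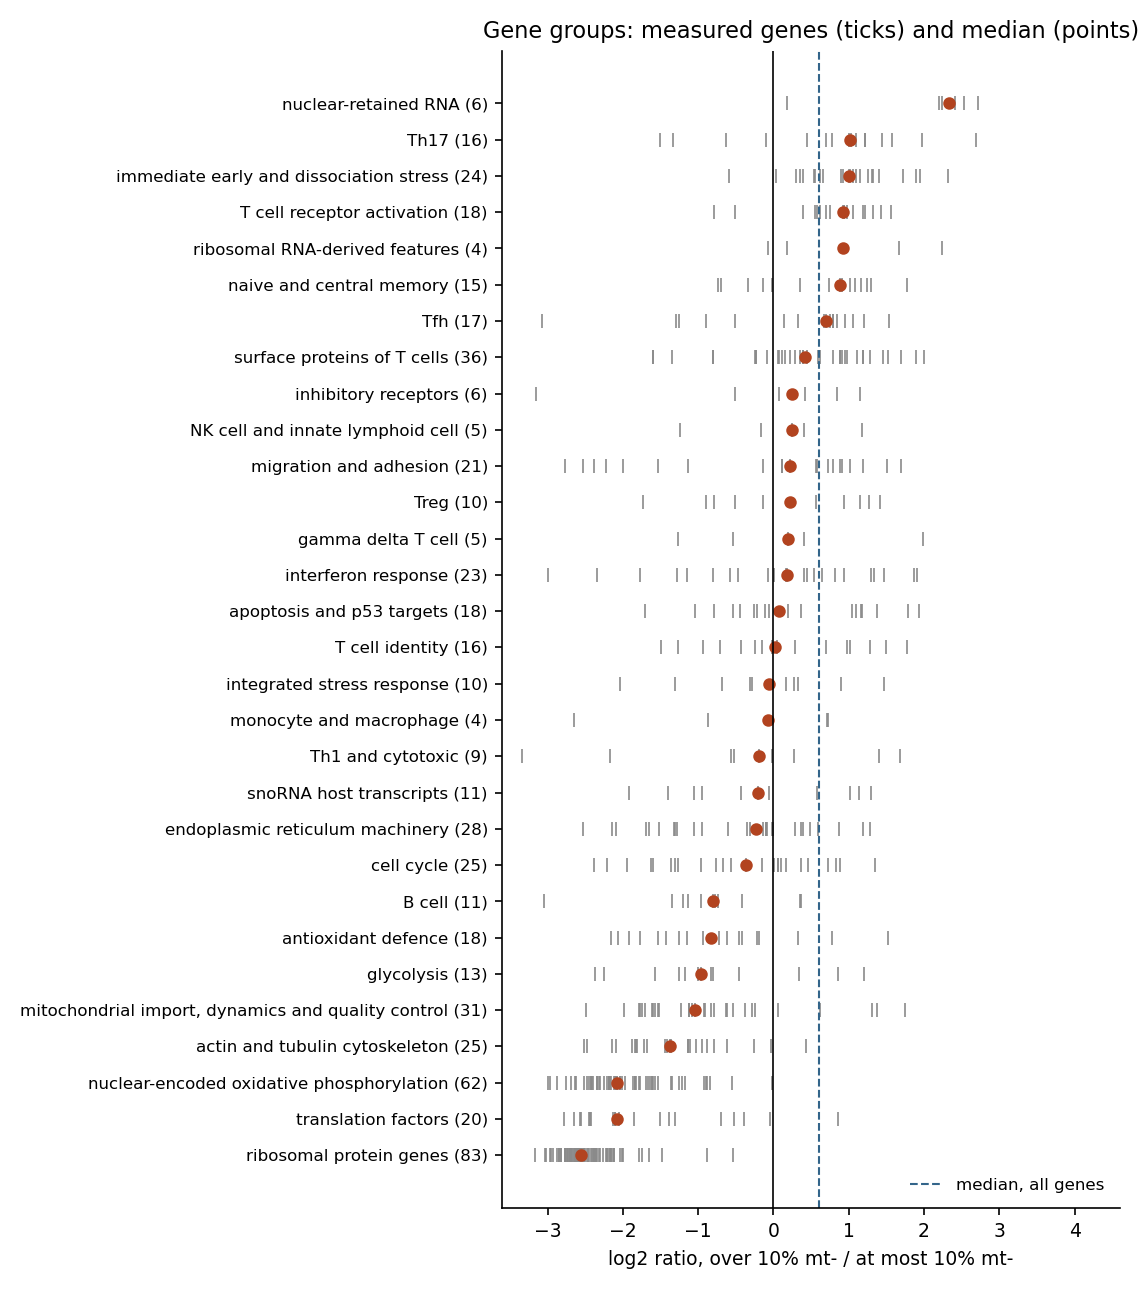
Log2 ratio of high-mt over low-mt CPM for the measured genes (ticks) and their median (points) in each gene group, with the number of measured genes in parentheses. The dashed line is the median of all 6727 measured genes, 0.60; nuclear-retained RNA has the highest median (2.33) and ribosomal protein genes lowest (median -2.55). Groups with fewer than 3 measured genes and the neutrophil list, which had 4 UMIs in high-mt barcodes, are not drawn.

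Across genes, the ratio was higher for longer transcripts, a relation looked at after the values were seen. Over 6724 genes with an annotated length, Spearman's rho between the log2 ratio and the length of the gene's representative GENCODE transcript was 0.67, and 0.66 without ribosomal protein genes; genes share both groups of barcodes and are not independent, so this is a description. Genes were split into 10 equal classes by length. In the class with the shortest transcripts (183 to 1145 bases) the median ratio was -1.47, and 78.9% of genes were at least 1.5-fold lower. In the class with the longest (6853 bases or more) the median was 1.58, and 93.2% were at least 1.5-fold higher. From short to long, the 8 classes between them had medians of -0.55, -0.02, 0.27, 0.51, 0.81, 1.00, 1.13 and 1.3, each above the one before. The nuclear-encoded oxidative phosphorylation list (median 787 bases) falls in the shortest class and the nuclear-retained RNA list (12464.5 bases) in the longest. The part of length in the ratios of these lists was not tested.

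The relation with length was seen at each level of expression. With genes split into 3 equal classes by their UMIs in both groups together, rho was 0.57 in the lowest, 0.66 in the middle and 0.74 in the highest. Among 2924 genes with at least 30 UMIs in high-mt barcodes it was 0.62. The ratio was also related to the longest run of A in the transcript (rho 0.34), but among transcripts of 3000 to 5000 bases the median hardly differed with the run: 0.97 for runs of up to 5 A (n = 487), 1.00 for 6 to 9 (n = 1074), 0.92 for 10 to 14 (n = 268) and 0.91 for 15 or more (n = 95). In the same direction per barcode, transcripts of 5000 bases or more gave a median of 32.2% of the UMIs outside mt-, Malat1 and ribosomal protein genes in high-mt barcodes and 15.3% in low-mt barcodes, and those under 1000 bases gave 4.2% and 17.7%. The share of long transcripts was above the 95th percentile of low-mt barcodes in 518 of the 525.

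A weaker relation of the same sign was present among barcodes under the limit in both libraries. In the Id2-deficient library, 194 barcodes with 6% to 10% mt- set against 816 with 2% to 4% gave a median ratio of -0.17 in the class with the shortest transcripts and 0.45 in that with the longest (rho 0.42). In the control library, 220 barcodes with 3% to 10% mt- set against 3062 with 1% to 2% gave -0.10 and 0.41 (rho 0.33). In both pairs the barcodes with more mt- RNA were also shallower, with medians of 4567 against 7095 and 3580 against 5724 UMIs outside mt- genes. The part of depth in the relation was not tested.

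**Figure D4:**
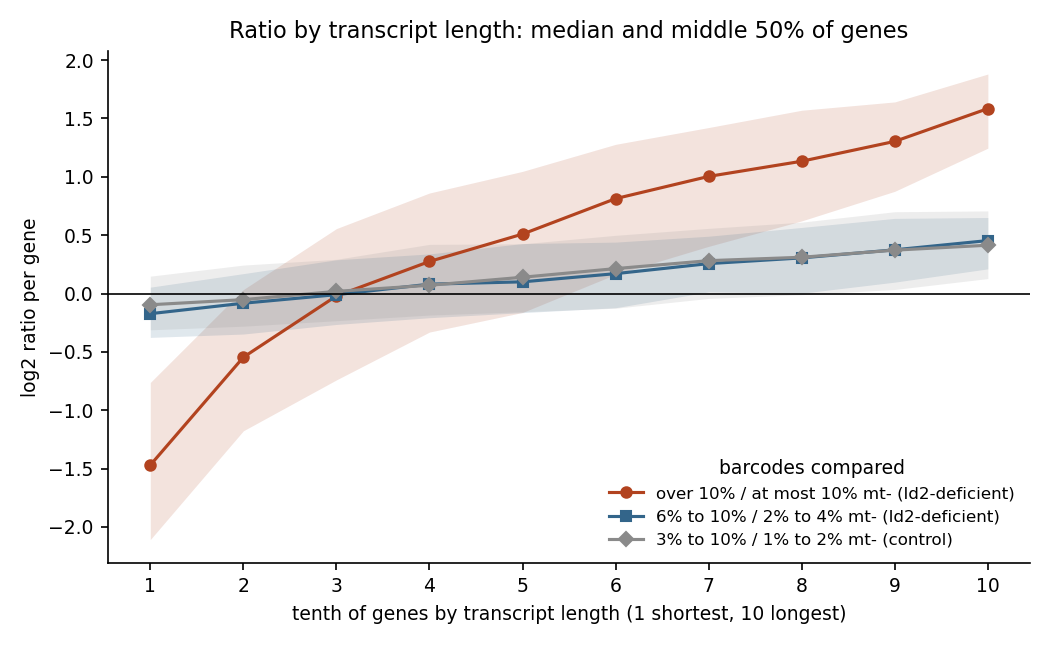
Median log2 ratio in 10 equal classes of genes by transcript length, from the shortest (1) to the longest (10), with the middle 50% of genes shaded, for 3 pairs of barcode groups, each named as the group with more mt- RNA over the one with less. For high-mt over low-mt barcodes the median runs from -1.47 to 1.58; for the pairs below the limit it runs from -0.17 to 0.45 (Id2-deficient) and from -0.10 to 0.41 (control).

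Most high-mt barcodes still carried T cell messages. At least 1 UMI of the 16 T cell identity genes was found in all but 5 of the 525. With barcodes thinned to 1000 UMIs outside mt- genes, 3 or more UMIs from T cell receptor and CD3 genes were found in 86 of 107 high-mt barcodes (80.4%, 71.6% to 87.4%) and in 1822 of 1923 low-mt barcodes (94.7%, 93.7% to 95.7%). This leaves out 418 shallower high-mt barcodes. B cell barcodes cannot be compared here, since they were chosen with fewer than 3 UMIs of these same genes. Thinned to 500 UMIs, which leaves out 150, the shares were 137 of 375 (36.5%, 31.6% to 41.6%) and 75.3% (73.3% to 77.2%). Without thinning they were 50.3% and 97.0%, and 74 high-mt barcodes had no T cell receptor or CD3 UMI at a median of 3, against 51 in low-mt barcodes.

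The T cell identity genes differed among themselves, and the list as a whole stood near 0. Of 16 genes, 6 were higher and 4 lower by 1.5-fold, with a median of 0.02. For all measured genes the median was 0.60, with 50.7% higher and 21.7% lower. Bcl11b, a transcription factor that fixes T cell commitment, had 456 UMIs in high-mt barcodes and 4458 in low-mt barcodes (1.78, 1.63 to 1.92), and its annotated transcript has 8111 bases. The kinase Lck stood at 1.28 (1.14 to 1.41) and Cd4 at 1.01 (0.80 to 1.21). Messages of the receptor complex were lower: Cd3g stood at -1.49 (-1.71 to -1.28), Trbc2, the receptor's beta constant chain, at -0.94 (-1.07 to -0.82), Trac at -0.71 (-0.89 to -0.53) and Trbc1 at -0.43 (-0.57 to -0.29). At equal depth of 500 UMIs, Bcl11b was seen in 38.1% of high-mt and 14.3% of low-mt barcodes and Trbc2 in 40.3% and 65.9%, with 0% of B cell barcodes for both. For Trbc2 the way the B cell barcodes were chosen holds that 0% down.

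Genes for surface proteins of T cells also ranged widely. Of 36 genes, 17 were higher and 5 lower, with a median of 0.42, below the 0.60 of all measured genes, of which 50.7% were higher and 21.7% lower. The leukocyte phosphatase Ptprc had 1481 UMIs in high-mt barcodes and 17261 in low-mt barcodes (1.52, 1.44 to 1.60), and the receptor Il6ra stood highest at 2.00 (1.72 to 2.27). Ly6a and Cd52, small lipid-anchored proteins, stood at -1.60 each, and B2m, the light chain of MHC class I, at -1.35.

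Genes of the Tfh state were present in high-mt barcodes, and the list as a whole stood close to the median gene. The Tfh list had 1820 UMIs in high-mt barcodes (4496 CPM) and 35376 in low-mt barcodes (2610 CPM), a summed log2 ratio of 0.78 (0.72 to 0.85). Of 17 measured genes, 10 were higher and 4 lower, with a median of 0.69, beside 50.7% higher, 21.7% lower and a median of 0.60 for all measured genes. Maf, a transcription factor of Tfh and Th17 cells, stood at 1.21 (1.08 to 1.33), the receptor Slamf6 at 1.53 (1.37 to 1.68) and the ligand Tnfsf8 at 0.96 (0.77 to 1.13). The follicle-homing receptor Cxcr5 had 56 and 1084 UMIs (0.79, 0.38 to 1.18), Il21, a cytokine that acts on B cells, 39 and 755 (0.79, 0.29 to 1.25), and Bcl6, the transcription factor of the state, 21 and 443 (0.67, -0.04 to 1.3). On the low side, the adaptor Sh2d1a had 56 and 4477 UMIs (-1.26, -1.66 to -0.88), and Il4 had 1 and 283 (-3.08, -8.39 to -0.59).

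At equal depth, too, the Tfh list and the genes Maf, Slamf6 and Cxcr5 had the higher share in high-mt barcodes, which was not particular to Tfh. Thinned to 500 UMIs, Maf was seen in 42.4% of 375 high-mt barcodes (37.3% to 47.6%) and 24.3% of low-mt barcodes (22.4% to 26.3%), and Slamf6 in 34.9% (30.1% to 40%) and 17.1% (15.4% to 18.8%), with 0% and 7.69% of B cell barcodes. Cxcr5 was seen in 7.2% (4.80% to 10.3%) and 4.19% (3.34% to 5.18%), with 2.56% of B cell barcodes. At least 3 UMIs of the list were found in 35.7% of high-mt, 18.5% of low-mt and 0% of B cell barcodes. High-mt shares were also higher for Th17 (13.1% against 6.10%), Th1 and cytotoxic (6.4% against 1.29%) and naive and central memory genes (37.1% against 18.5%). So was that for T cell receptor activation genes (22.7% against 8.43%). High-mt shares were lower for interferon response (25.1% against 36.6%) and migration and adhesion genes (42.7% against 52.4%). For cell cycle genes, 3.73% (2.06% to 6.18%) stood against 5.27% (4.32% to 6.37%), with overlapping intervals. Treg genes had 3.2% and 3.15%. Thinning leaves the ribosomal protein share unequal between the groups.

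Genes of Th17 cells were present too, and Ahr stood apart from the rest. The Th17 list had 2255 CPM in high-mt barcodes and 1501 CPM in low-mt barcodes, a summed ratio of 0.59 (0.49 to 0.68). Of 16 genes, 11 were higher and 3 lower, with a median of 1.02, which is 0.41 above that of all genes. Among all measured genes 50.7% were higher and 21.7% lower. Ahr, a ligand-activated transcription factor, had 94 and 486 UMIs and was seen in 13.3% of high-mt and 1.86% of low-mt barcodes at equal depth. The share in B cell barcodes was 2.56% (1 of 39, up to 13.5%), and the low-mt share was not above it. Il17re, a chain of interleukin 17 receptors, stood at 1.97 (1.56 to 2.35), the transcription factor Rora at 1.44 (1.19 to 1.67), and the receptor Ccr6 at 1.22 (0.94 to 1.48). The cytokines were rare: Il17a had 8 and 95 UMIs (1.5, 0.24 to 2.53), Il17f 18 and 372 (0.70, -0.07 to 1.38) and Il22 22 and 542 (0.44, -0.24 to 1.06). The membrane proteins Tmem176b and Tmem176a stood at -1.5 (-2.03 to -1.02) and -0.64 (-0.97 to -0.32), and Batf at -1.34 (-1.89 to -0.84).

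Th1 and cytotoxic genes were carried by few members of their list. Their summed ratio was 0.83 (0.71 to 0.95), but the median of the 9 measured genes was -0.19, of the opposite sign, with 2 higher and 2 lower. Shares over all measured genes were 50.7% higher and 21.7% lower. Il18r1, a receptor chain for interleukin 18, had 287 UMIs in high-mt barcodes and 2989 in low-mt barcodes (1.68, 1.5 to 1.86), and was seen in 30.1% of high-mt and 10.3% of low-mt barcodes at equal depth, with 0% of B cell barcodes. The signal transducer Stat4 stood at 1.40 (1.14 to 1.65). The receptor Cxcr6 had 49 and 1870 UMIs (-0.19, -0.63 to 0.22). The defining cytokine Ifng had 1 and 43 UMIs and the lineage factor Tbx21 1 and 30, few in both groups. The chemokine Ccl5 had 2 UMIs in high-mt barcodes and 680 in low-mt barcodes (-3.34, -6.39 to -1.49), but 1 low-mt barcode held 72.8% of those 680. Gzmb, Prf1 and Eomes had 0 UMIs in high-mt barcodes, which held 404832 UMIs outside mt- genes against 13554524 in low-mt barcodes. For rare genes, a count of 0 at that depth does not show absence.

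Naive and central memory genes had 4372 CPM in high-mt barcodes and 2518 CPM in low-mt barcodes, a summed ratio of 0.80 (0.73 to 0.86), with 9 of 15 genes higher, 2 lower and a median of 0.89, beside 50.7% higher, 21.7% lower and a median of 0.60 for all genes. Satb1, a chromatin organiser, stood at 1.77 (1.60 to 1.95) and the interleukin 7 receptor Il7r at 1.08 (0.92 to 1.23). Tcf7, a transcription factor of resting and memory T cells, had 192 UMIs in high-mt barcodes and 6509 in low-mt barcodes, with a ratio of -0.02 (-0.23 to 0.19). Ms4a4c had 6 and 336 UMIs (-0.74, -2.20 to 0.40). Il7r was seen in 30.1% of high-mt and 17.6% of low-mt barcodes at equal depth, with 0% of B cell barcodes; for Satb1 the shares were 28.5% and 9.62%, and B cell barcodes had 15.4% (6 of 39, 5.86% to 30.5%), which the low-mt share did not exceed.

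Without thinning, the deeper low-mt barcodes had the higher share for each of these genes. Maf was then seen in 50.3% of high-mt and 82.5% of low-mt barcodes, Slamf6 in 40.2% and 72.5%, and Cxcr5 in 9.71% and 30.6%. Ahr was seen in 14.7% and 17.7%, Il18r1 in 35.05% and 54.4%, Il7r in 33.1% and 52.02%, and Satb1 in 36.8% and 59.1%. For Bcl11b the shares were 51.05% and 80.4%, for Trbc2 48.95% and 96.6%, and for Jun, an immediate early gene 42.7% and 66.4%. The median depths behind them were 632 and 6030 UMIs outside mt- genes, and 4742 in B cell barcodes.

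**Figure D5:**
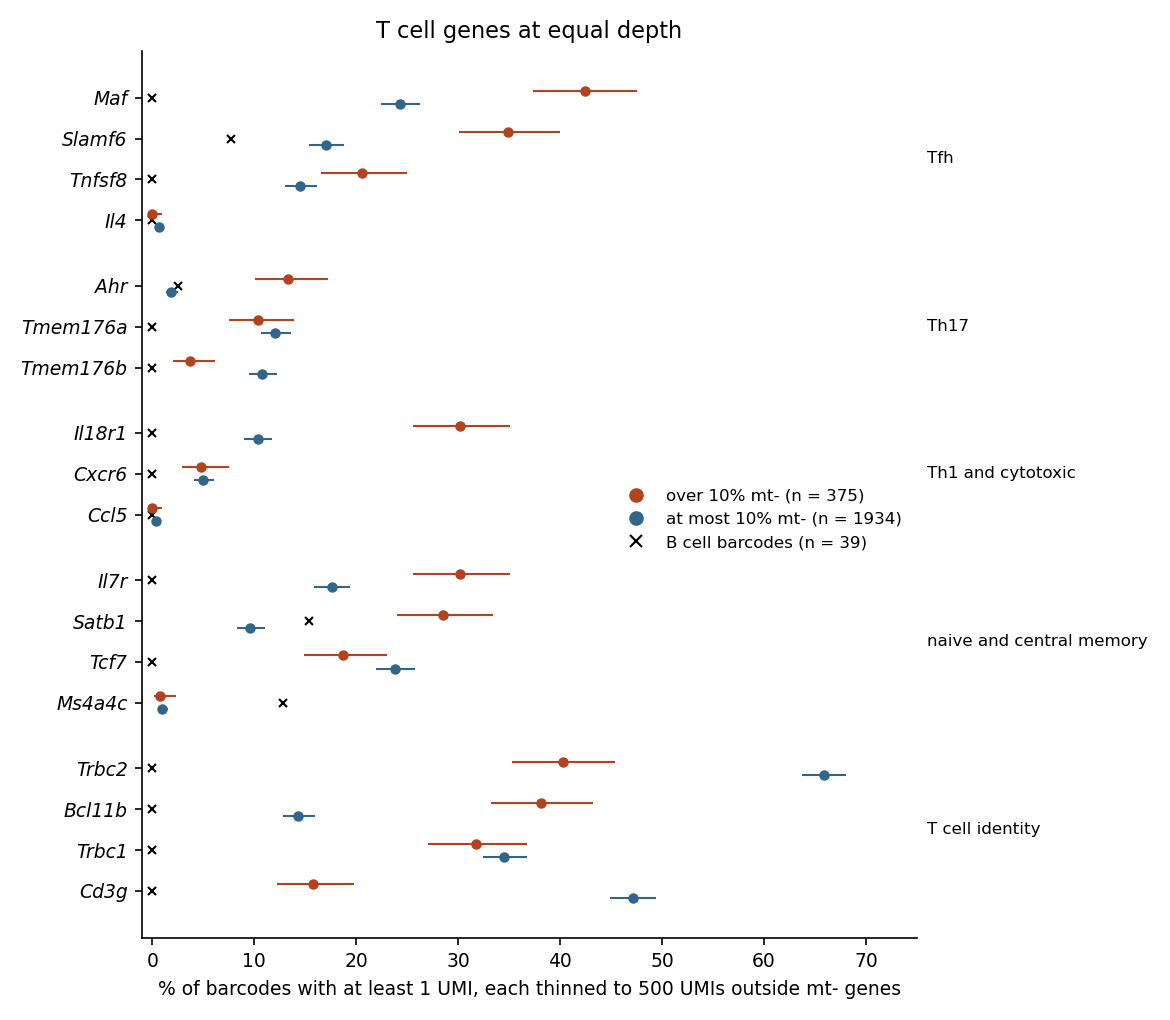
Share of barcodes with at least 1 UMI of a T cell gene after each barcode was thinned to 500 UMIs outside mt- genes, in high-mt (red, n = 375), low-mt (blue, n = 1934) and B cell barcodes (crosses, n = 39), with exact 95% intervals for the first pair of groups. Genes are the highest, the lowest and the 2 with most UMIs of each list; Maf, Slamf6, Ahr, Il18r1, Il7r, Satb1 and Bcl11b stand to the right in high-mt barcodes, and Trbc2, Cd3g and Tmem176b to the left.

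The size of these state ratios depended on what they were divided by. With ribosomal protein genes left out of the total, the summed ratios were 0.31 for Tfh and 0.11 for Th17. They were 0.35 for Th1 and cytotoxic and 0.32 for naive and central memory genes. The median of all measured genes was then 0.13. The summed Th17 ratio was below that median, as with the full total (0.59 against 0.60). A sum weighs abundant genes more than a median over genes does. By the median of its genes, 1.02 with the full total, the Th17 list stood above the 0.60 of all genes. Both groups were also limited to barcodes with 1000 to 5000 UMIs outside mt- genes (106 and 543). The summed ratios were then 0.66, 1.13, 1.01 and 0.48 in the same order, beside a median of -0.01 for all genes. The lists were also made of transcripts of different length, with medians of 2947 bases for Tfh, 2532 for Th17, 1731 for Th1 and cytotoxic and 3482 for naive and central memory genes, against 1676 for T cell identity genes. The part of transcript length in each list's ratio was not tested.

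Along the mt- share, the state lists ran differently below and above the limit. The Tfh list had 2605 CPM in the 36 barcodes with at most 2% mt-, 2224 CPM in barcodes with 2% to 3% mt-, 4152 CPM with 6% to 8% and 4317 CPM with 8% to 10%, and in high-mt bins it ran from 5591 CPM (10% to 12%) to 4014 CPM (over 40%). The Th17 list had 1198, 1696, 1156 and 1197 CPM in those 4 low-mt bins and between 1953 and 2642 CPM in the 6 high-mt bins. Th1 and cytotoxic genes had 2916, 836, 568 and 568 CPM there, 705 CPM in the 21 barcodes with 10% to 12% and 1403 to 1903 CPM in the other high-mt bins. These are sums over unequal numbers of barcodes, 34 to 235 in those low-mt bins and 21 to 202 in the high-mt bins. In 1 low-mt barcode the Th1 and cytotoxic list took 10.8% of UMIs outside mt- genes, against a low-mt median of 0.0581%. The part of that barcode in these sums was not tested.

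Treg and inhibitory receptor genes had medians below that of all genes, and T cell receptor activation genes one above it. All measured genes gave 50.7% higher, 21.7% lower and a median of 0.60. Of 10 genes on the Treg list, 4 were higher and 3 lower (median 0.22). Ikzf2 stood at 1.42 (1.13 to 1.69), Izumo1r at -0.89 (-1.35 to -0.47) and the actin-capping Capg at -1.74 (-2.31 to -1.22). Foxp3, the factor that defines these cells, had 0 UMIs against 46, too few to compare at these depths. Of 18 genes of T cell receptor activation, 13 were higher and 1 lower (median 0.93, summed ratio 0.96). Nfkb1, of the NF-kB family, stood at 1.56 (1.31 to 1.81), the early marker Cd69 at 1.43 (1.17 to 1.67) and the costimulator Cd28 at 1.19 (1.01 to 1.36). Tnfrsf4 stood at -0.79 (-1.44 to -0.21). Of 6 inhibitory receptors, 2 were higher and 1 lower (median 0.25), from Ctla4 at 1.15 (0.78 to 1.51) to Cd160, with 1 and 299 UMIs, at -3.16 (-8.47 to -0.67); Pdcd1 stood at -0.50 (-1.10 to 0.03) and Cd96 at 0.42 (-0.02 to 0.83).

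Immediate early genes, which respond to stimulation and also to cell dissociation, stood above the median gene. Of 24, 17 were higher and 1 lower in high-mt barcodes, with a median of 1.01. Beside these stand 50.7% higher, 21.7% lower and a median of 0.60 for all measured genes. The AP-1 genes Fosb, Fos and Jun stood at 2.31 (2.01 to 2.61), 1.94 (1.73 to 2.15) and 1.72 (1.57 to 1.86), and the heat shock genes Hspa1b and Hspa1a at 1.31 (1.18 to 1.45) and 1.26 (1.09 to 1.43). Hspa8, a constitutive heat shock protein, stood lowest at -0.59 (-0.74 to -0.43). At equal depth Jun was seen in 34.7% of high-mt and 14.4% of low-mt barcodes, and at least 3 UMIs of the list in 87.7% and 65.9%, with 51.3% of B cell barcodes. In high-mt bins the list ran from 11050 CPM (10% to 12% mt-) through 14363 CPM (12% to 15%) to 8379 CPM (over 40%), against 9570 CPM in low-mt barcodes with 8% to 10%.

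Genes of cell death and of other stress programmes showed no single direction. Of 18 measured genes of apoptosis and p53 targets, 7 were higher and 3 lower (median 0.07). Over all measured genes 50.7% were higher and 21.7% lower, with a median of 0.60. The survival factor Bcl2 had 140 UMIs in high-mt barcodes and 1222 in low-mt barcodes (1.94, 1.68 to 2.19) and Mcl1 stood at 1.09 (0.91 to 1.28), whereas the death effector Bax stood at -0.44 (-0.85 to -0.07) and Cycs, cytochrome c, at -1.71 (-2.43 to -1.08). Of 10 genes of the integrated stress response, 2 were higher and 3 lower (median -0.06, summed ratio 0.28), from Psat1 with 2 and 274 UMIs (-2.03, -5.09 to -0.17) to the phosphatase subunit Ppp1r15a at 1.47 (1.10 to 1.82). Of 18 antioxidant genes, 11 were lower and 2 higher (median -0.83), from thioredoxin Txn1 at -2.16 (-2.65 to -1.72) to Gclc, of glutathione synthesis, at 1.52 (0.90 to 2.07).

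Most of the remaining lists held both higher and lower genes, as did all measured genes together (50.7% higher, 21.7% lower, median 0.60). Interferon response genes gave 8 higher and 6 lower of 23 (median 0.19, summed ratio -0.36), from Isg15 with 2 and 534 UMIs (-3.00, -6.04 to -1.14) to Stat2 at 1.91 (1.40 to 2.38), with Ifi203 at 1.3. Migration and adhesion genes gave 8 higher and 7 lower of 21 (median 0.22, summed ratio -0.74), with the integrin Itga4 at 1.70 (1.47 to 1.92) and S100a6 at -2.23 (-2.49 to -1.98). Cell cycle genes gave 4 higher and 11 lower of 25 (median -0.36), with the topoisomerase Top2a, of which 1 barcode held 25.6% of the high-mt UMIs, at 1.35 (1.02 to 1.66), Hmgb2 at -1.36 (-1.60 to -1.13), Tubb4b at -0.96 and the kinase Cdk1 at 2 and 349 UMIs. Hosts of small nucleolar RNAs gave 3 higher and 4 lower of 11 (median -0.21), from Snhg9 at 1.29 to Epb41l4aos at -1.91. Of the 4 features derived from ribosomal RNA or overlapping it, Gm26917 stood at 2.24, Lars2, a mitochondrial leucyl-tRNA synthetase, at 1.66, and AY036118 at -0.08 (-0.27 to 0.11).

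Markers of other cell types differed in share from list to list. Among all measured genes 50.7% were higher and 21.7% lower. B cell genes had 379 UMIs (936 CPM) in high-mt barcodes and 16038 (1183 CPM) in low-mt barcodes, with 8 of 11 measured genes lower and 0 higher; Cd79a and Cd79b had 11 and 12 UMIs, and 2 high-mt barcodes had at least 3 UMIs of the B cell gate genes. At equal depth of 500 UMIs, 20.5% of high-mt and 18.9% of low-mt barcodes had a UMI of the B cell list. Ighm had 180 and 4741 UMIs (0.35, 0.12 to 0.56) and Cd74 83 and 4610 (-0.73, -1.06 to -0.42), and Ebf1 and Ighd stood at 0.36 (-0.66 to 1.22) and -3.04 (-8.35 to -0.55). The barcode with most UMIs held 72.7% of those of Ebf1 and, for Cd74, 33.7% in high-mt barcodes. Neutrophil genes had 4 UMIs in high-mt barcodes and 16238 in low-mt barcodes, with S100a8 and S100a9 at 1 UMI each in high-mt barcodes. The low-mt UMIs lay in 40 barcodes, and 1 barcode held 51.1% of S100a8 and 50.1% of S100a9, so that contrast rests on few low-mt barcodes. Red cell genes had 1 and 88 UMIs, Cd8a and Cd8b1 together 1 and 254, and basophil and mast cell genes 1 and 7.

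Other lists rested on few genes or few barcodes. Platelet genes had 16 UMIs (39.5 CPM) in 3 high-mt barcodes and 42 (3.10 CPM) in 21 low-mt barcodes. Plasma cell genes had 24 UMIs (59.3 CPM) in 20 high-mt barcodes and 298 (22.0 CPM) in 175 low-mt barcodes, a higher share in high-mt barcodes with a log2 ratio of 1.43 (0.77 to 2.03), although Igha, Ighg1, Ighg2c and Jchain had 0 in high-mt barcodes. Of 82 stroma and endothelium UMIs in high-mt barcodes, 81 were of Pecam1 (1.43, 1.09 to 1.76), and the collagen and endothelial markers Col3a1, Dcn, Cdh5 and Kdr had 0. Monocyte and macrophage genes had 116 and 4012 UMIs, with Lyz2, of which 1 barcode held 75% of the high-mt and 35.5% of the low-mt UMIs, at -2.65 (-3.86 to -1.67) and the receptor Ccr2 at 0.72 (0.25 to 1.15). Dendritic cell genes had 52 and 4589 UMIs, and Itgax, Flt3 and Xcr1 had 0 in high-mt barcodes. Whether these UMIs come from the cell or from free RNA was not tested. High-mt barcodes held 404832 UMIs outside mt- genes against 13554524 in low-mt barcodes, so a 0 for a rare gene does not show absence.

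Gamma delta T cell genes had 160 and 4434 UMIs, with a median of 0.19 over 5 measured genes; Cd163l1, a scavenger receptor of these cells, stood at 1.98 (1.61 to 2.34), and the delta constant chain Trdc had 23 and 1853 UMIs (-1.27, -1.93 to -0.68). Genes of natural killer and innate lymphoid cells had 67 and 1842 UMIs, with Klrk1 at 1.18 (0.48 to 1.80), Gata3 at 0.25 (-0.38 to 0.81) and Tyrobp, with 4 and 317 UMIs, at -1.24 (-3.13 to 0.13).

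A small number of high-mt barcodes differed from the rest. In 27 the ribosomal protein share was 10% or more, with a median depth of 887 UMIs outside mt- genes, a median Malat1 share of 8.91% and mt- shares from 10.1% to 78.3%. The deepest, with 5791 UMIs, 11.2% mt-, a ribosomal protein share of 24.7% and 63 T cell receptor or CD3 UMIs, was like low-mt barcodes in each of these but the mt- share. The barcode with the highest mt- share, 78.3%, had 132 UMIs outside mt- genes. Another, with 10.4% mt-, took 75.5% of its 576 UMIs outside mt- genes from features derived from ribosomal RNA and had a Malat1 share of 0.174% and no T cell receptor or CD3 UMI. Shares of such features above 10% were seen in 6 high-mt and 5 low-mt barcodes. Malat1 was absent from 1 high-mt barcode and under 1% in 4, against 134 low-mt barcodes (6.93%) under 1%.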

How the data were processed

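The deposited counts, whole-number UMI counts for each gene in each barcode, were made with Cell Ranger, 5.0.1 per the file headers and 1.3 per the submitters' processing notes, with mm10 as the genome build per the same notes. How barcodes were filtered before deposit was not stated. The barcodes and gene lists were chosen with earlier results of these data known, so no list is independent evidence of its direction.

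Both tables hold 32285 genes. UMIs outside mt- genes were summed per group of barcodes; each 1000000 such UMIs make the CPM. Ratios have exact conditional binomial intervals, CPM exact Poisson intervals and shares Clopper-Pearson intervals, all at 95%. No test was run, since barcodes are not replicates. A gene with 0 counts in 1 group took a floor of 3 counts. Thinning drew UMIs without replacement (seed 11). Of 643 list entries, 4 symbols were not in the tables. Named genes are Malat1, Id2, the mt- genes, the 12 highest lower bounds, the 12 lowest upper bounds (genes with under 10% of either group's UMIs in 1 barcode) and, per list, the highest, the lowest and, for T cell states and cell types, the 2 with most UMIs; others were named after their values were seen. A few genes that meet this rule are not reported here. Positions and transcript lengths came from GENCODE M21 on GRCm38. No doublet caller was run; an alternative leaves out the 4% of barcodes with most UMIs. Ratios were tested on simulated data. Python 3.11.15, numpy 2.4.6, scipy 1.17.1, pandas 2.3.3 and matplotlib 3.10.9 were used.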

Additional observations from a re-analysis of the deposited data

How the results depend on the processing

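All log2 ratios are of high-mt over low-mt barcodes. Of the main results' values under alternatives, 59 stayed within the counting interval (counts of genes within 1.5 times), 37 moved further and none reversed. With the limit at 8%, Malat1 stood at 2.20, ribosomal protein genes at -1.69, Th17 at 0.43, Th1 and cytotoxic at 0.62 and naive and central memory genes at 0.65. With a limit of 15% for high-mt barcodes they were 2.49 for Malat1, -2.76 for ribosomal protein genes and 0.70 for Tfh. With at most 5% mt- for low-mt barcodes, Malat1 was 2.54 and Tfh 0.89. With 1000 to 5000 UMIs in both groups (106 and 543 barcodes), Malat1 was 1.79, ribosomal protein genes -2.18, Tfh 0.66, Th17 1.13, Th1 and cytotoxic 1.01 and naive and central memory genes 0.48, with 625 genes higher and 660 lower among 1804 measured. There, list medians minus the all-gene median reversed to 0.58 for the integrated stress response, 1.17 for Th1 and cytotoxic and 0.0487 for T cell identity genes, against -0.66, -0.79 and -0.59. With 3 or more UMIs of T cell receptor or CD3 genes, Malat1 was 2.37 and ribosomal protein genes -2.48. Without the 4% deepest barcodes, Malat1 was 2.28 and naive and central memory genes 0.68. With each barcode weighing the same, they were 2.25 and 0.72, with ribosomal protein genes at -2.68 and Tfh at 0.67. With ribosomal protein genes out of the total, Malat1 was 1.94, Tfh 0.31, Th17 0.11, Th1 and cytotoxic 0.35 and naive and central memory genes 0.32. A minimum of 50 UMIs per gene gave 5316 higher genes and one of 500 gave 1670, as more or fewer genes were measured. The share of high-mt barcodes with 3 T cell UMIs was 36.5% (137 of 375) thinned to 500 UMIs, against 75.3% of low-mt barcodes. Thinned to 2000 UMIs it was 93.3% (14 of 15, 68.1% to 99.8%), against 97.4%. That depth left out 510 high-mt barcodes, so these shares are of different barcodes. Chosen after seeing the data, high-mt barcodes under 10% ribosomal protein share alone gave 2.50 for Malat1 and -2.93 for ribosomal protein genes. Where no reason is given, the cause was not tested.

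No paired analysis was possible because each genotype has 1 library. Depth limits what high-mt barcodes can show: the median measured gene had 25 UMIs there, and thinning to 1000 UMIs left 107 of 525. Doublets, free RNA and the source of the high-mt barcodes were not tested, and 1 library cannot separate genotype from sample handling.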
